A study of Homo sapiens with 8 samples.

Results

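RNA of 22Rv1 cells was compared for 10 genes that write, maintain or remove repressive chromatin and DNA methylation marks: EZH1, EZH2, EED, SUZ12 and JARID2 of Polycomb repressive complex 2 (PRC2), the DNA methyltransferase genes DNMT1, DNMT3A and DNMT3B, the DNMT1 partner UHRF1, and the 5-methylcytosine dioxygenase gene TET2. The members were chosen by name, as the rows of the count files whose GENCODE symbol is on this list, and all 10 of 58735 genes were found and passed the filter on low counts. 22Rv1 is an established human castration-resistant prostate cancer line. Control libraries came from cells given DMSO, the vehicle, and MARK3i libraries from cells given PCC0208017, which the labels present as a compound against the kinase MARK3, with 4 libraries in each group. No genotype differs between the groups, neither dose nor duration is stated in the labels, and every sample is the same cell line.

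PRC2 adds methyl groups to lysine 27 of histone H3, a mark of silenced genes. Its catalytic subunit is either EZH2, which is abundant in dividing cells and often raised in advanced prostate cancer, or its paralog EZH1, which is found more in resting cells. EED and SUZ12 are needed for activity, and JARID2 helps to bring the complex to its sites and stimulates it. DNA methylation is copied to the new strand after replication by DNMT1, which UHRF1 brings to hemimethylated CpG sites, whereas DNMT3A and DNMT3B methylate sites without a template. TET2 oxidises 5-methylcytosine as a step in its removal.

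Total counts ranged from 12672817 to 21271127 per library, and MARK3i replicate 2 was the deepest. The groups lay apart on the first principal component (70.6% of the variance). The second (7.4%) separated control replicates 1 and 2 from control replicates 3 and 4, and also MARK3i replicates 1 and 3 from MARK3i replicates 2 and 4. No label says that replicates came from separate cultures, so p-values reflect only how these samples vary, and that variation may be technical. All 5 epithelial markers were tested, and KRT8, KRT18, EPCAM, CLDN4 and CDH1 summed to 1842 to 1921 CPM (counts scaled to library size) in controls and 1867 to 2039 CPM in MARK3i libraries, with KRT18 lower (−0.445 on the log2 scale), CDH1 higher (0.306) and the other 3 not passing. Of 5 fibroblast markers 2 were tested, with LUM lower (from 2.995 to 0.5076 CPM) and COL1A1 higher (from 11.32 to 17.96 CPM); the part of these markers in the results was not tested. Summed endothelial markers reached at most 0.141 CPM, immune markers at most 2.73 CPM and fibroblast markers at most 22.9 CPM, and CD3E, PECAM1 and CDH5 had no count in any library. In bulk RNA, fewer cells with a transcript and less of it per cell cannot be told apart.

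The promoters of 7 members are shown, with 3 genes that fell, 2 that rose and 2 that did not pass the test, for E2F-type and CCAAT sequences. All 3 that fell hold an E2F-type match, but DNMT3A and DNMT3B, which also fell and are not shown, hold none. EED, which did not pass and is not shown, holds none either. The stretches shown therefore do not stand for all members. Each stretch runs from 200 bases before to 15 bases after the RefSeq start nearest the MANE Select start, 5′ to 3′ on the gene's strand (RefSeq, GRCh38.p14). Capitals mark E2F-type matches and CCAAT boxes on either strand. The windows are chr7:148884277-148884491 (EZH2, minus strand), chr19:4909301-4909515 (UHRF1, plus), chr19:10194939-10195153 (DNMT1, minus), chr17:31936807-31937021 (SUZ12, plus), chr17:42745026-42745240 (EZH1, minus), chr6:15245869-15246083 (JARID2, plus) and chr4:105146676-105146890 (TET2, plus).
EZH2: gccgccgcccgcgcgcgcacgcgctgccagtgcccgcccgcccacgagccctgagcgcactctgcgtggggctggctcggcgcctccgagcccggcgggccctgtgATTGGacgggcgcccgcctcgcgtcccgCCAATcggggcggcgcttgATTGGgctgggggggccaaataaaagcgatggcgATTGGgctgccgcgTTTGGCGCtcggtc
UHRF1: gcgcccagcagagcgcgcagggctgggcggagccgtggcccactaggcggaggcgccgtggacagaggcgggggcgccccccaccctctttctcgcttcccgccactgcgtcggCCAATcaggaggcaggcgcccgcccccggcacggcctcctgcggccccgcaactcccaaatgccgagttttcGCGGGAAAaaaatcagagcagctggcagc
DNMT1: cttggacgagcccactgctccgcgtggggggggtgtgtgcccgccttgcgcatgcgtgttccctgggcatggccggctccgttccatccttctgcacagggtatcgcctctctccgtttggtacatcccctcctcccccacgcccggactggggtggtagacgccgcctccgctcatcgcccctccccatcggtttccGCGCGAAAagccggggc
SUZ12: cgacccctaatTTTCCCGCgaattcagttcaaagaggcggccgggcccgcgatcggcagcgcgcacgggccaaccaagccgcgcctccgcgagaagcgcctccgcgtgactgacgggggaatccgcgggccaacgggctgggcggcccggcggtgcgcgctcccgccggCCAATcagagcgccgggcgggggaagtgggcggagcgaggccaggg
EZH1: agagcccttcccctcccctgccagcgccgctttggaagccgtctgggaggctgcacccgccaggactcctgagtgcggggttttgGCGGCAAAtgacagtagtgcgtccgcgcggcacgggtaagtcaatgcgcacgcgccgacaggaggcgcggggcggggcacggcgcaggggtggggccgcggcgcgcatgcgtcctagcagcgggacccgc
JARID2: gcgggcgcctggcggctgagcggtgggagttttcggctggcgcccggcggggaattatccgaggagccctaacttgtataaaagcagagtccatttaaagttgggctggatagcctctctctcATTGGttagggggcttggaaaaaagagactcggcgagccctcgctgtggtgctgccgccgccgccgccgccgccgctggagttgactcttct
TET2: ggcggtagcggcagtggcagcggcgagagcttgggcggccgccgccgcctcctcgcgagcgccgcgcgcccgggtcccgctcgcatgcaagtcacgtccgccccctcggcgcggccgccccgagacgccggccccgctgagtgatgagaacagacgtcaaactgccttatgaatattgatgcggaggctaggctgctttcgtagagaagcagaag

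The E2F-type search used TTTCCCGC, TTTGGCGC, TTTGCCGC and TTTCGCGC on both strands of the 300-base RefSeq window, which runs further than the stretch printed. A match was found for 5 of 10 members, EZH1, EZH2, SUZ12, DNMT1 and UHRF1, and for 3.39% of 27305 gene promoters. The promoters behind this and the following shares were not matched to the members for gene type, expression or CpG count. No enrichment is therefore read from the shares. The match lay at bases 2 to 9 in EZH2, from base −2 to base 6 in DNMT1, at −14 to −7 in UHRF1, at −115 to −108 in EZH1 and at −189 to −182 in SUZ12, counted from the start with its first base as 1. CCAAT was found in 6 of 10 members, DNMT3B among them, and in 35.7% of promoters, with 4 copies in EZH2. The E-box CACGTG was found in 0 members and in 7.44% of promoters, and TTTGAA was found in SUZ12 alone among the members and in 15.1% of promoters. No E2F-type match was found in this window for JARID2 and TET2, which rose, for DNMT3A and DNMT3B, which fell, or for EED, and nothing about the binding of a factor follows from these letters. The CpG count of the 300-base window was 46 in EZH2 and DNMT3A, 40 in SUZ12, 36 in UHRF1, 35 in TET2, 30 in EZH1 and DNMT1, 24 in JARID2 and 16 in EED, against a median of 15 over all promoters. The DNMT3B window held 3, but its RefSeq start lies 17467 bases from that gene's MANE Select start. Its CCAAT and E2F-type results are therefore not for a window like those of the other members.

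The maintenance methylation genes fell furthest, TET2 and JARID2 rose, and the catalytic and core PRC2 genes changed little. Of the 10 members, 5 were lower (UHRF1, DNMT1, DNMT3A, DNMT3B and EZH2), 2 were higher (JARID2 and TET2) and 3 did not pass the test (EED, SUZ12 and EZH1). Among all 16452 genes tested, 28.3% were lower and 29.8% higher, 58.1% in all, so 7 of 10 is not far from the share of all genes. The libraries of the groups did not overlap for 6 members, 4 lower and 2 higher, against 51% of tested genes (25.1% lower, 25.8% higher). The median log2 change of the members was −0.15 and that of all tested genes was 0.02. All changes are MARK3i minus control on the log2 scale, ± SE, with n = 4 libraries per group, and each adjusted p-value comes from the quasi-likelihood test of edgeR, Benjamini-Hochberg adjusted over all tested genes. Levels are CPM on the TMM scale, which aligns libraries on the bulk of genes. With total counts in place of TMM the median change of all genes was 0.125 and 63.5% of called genes were higher, against 51.3%, so small changes are relative to the TMM scale.

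**Figure D1:**
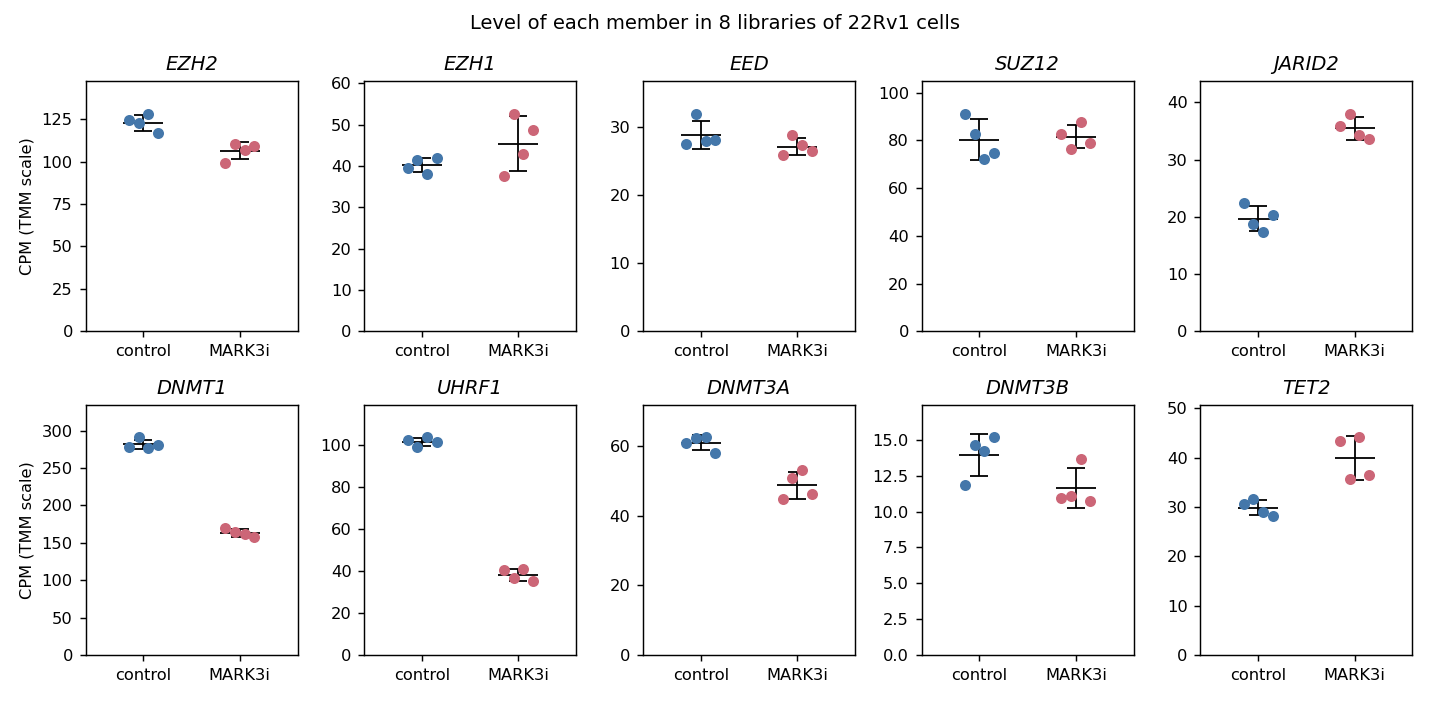
Level of each of the 10 members (CPM on the TMM scale, vertical axes from 0) in 4 control and 4 MARK3i libraries; points are libraries, the horizontal line is the mean and the bars are ± SD. UHRF1, DNMT1, DNMT3A and EZH2 lie lower in every MARK3i library than in any control and JARID2 and TET2 lie higher, while the groups overlap for EED, SUZ12, EZH1 and DNMT3B.

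UHRF1, whose protein reads hemimethylated CpG sites and ubiquitinates histone H3 to recruit DNMT1, had the largest fall among the members. UHRF1 (ENSG00000276043; chromosome 19, 4903080 to 4962154, hg38, plus strand) stood at 102.1, 98.77, 103.4 and 101.2 CPM in control replicates 1 to 4 and at 40.27, 36.41, 40.95 and 35.04 CPM in MARK3i replicates 1 to 4. The controls lay close together and every MARK3i library was far below the lowest control. The mean fell from 101.4 ± 1.95 to 38.17 ± 2.89 CPM (SD, n = 4), a log2 change of −1.41 ± 0.07 or 2.66-fold (adjusted p = 3.89e-15). A lower change was found for 2.88% of all tested genes.

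DNMT1, the maintenance DNA methyltransferase gene, fell as well. DNMT1 (ENSG00000130816; chromosome 19, 10133342 to 10231286, minus strand) stood at 277.7, 290.9, 276.5 and 280.6 CPM in controls and at 170.2, 163.9, 162.1 and 157.7 CPM in MARK3i libraries. No library of one group came near the other. The log2 change was −0.78 ± 0.05, or 1.72-fold lower (adjusted p = 4.05e-12). Its exons share 83 bases with S1PR2 on the same strand, which was at 1.376 CPM in controls.

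The ratio of UHRF1 to DNMT1 counts was lower in every MARK3i library than in any control. The log2 ratio of UHRF1 to DNMT1 counts was −1.44, −1.56, −1.42 and −1.47 in controls and −2.08, −2.17, −1.98 and −2.17 in MARK3i libraries. The difference of −0.63 was tested with a two-sided exact permutation test, with p = 0.0286, the smallest that 4 against 4 can give, and 0.049 after adjustment over 12 ratios. A ratio within a library does not depend on how libraries are scaled. The same adjusted value, 0.049, holds for each of the 7 ratios that reached the smallest p. Without control replicate 1 or without control replicate 3 the adjusted p of each was 0.0571 or above. In both cases EZH2 to EZH1 no longer reached the smallest p, which alone raised the adjusted p of the others to 0.0571. Their groups still did not overlap, and the difference for UHRF1 to DNMT1 was −0.617 and −0.609.

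The de novo methyltransferase genes fell less. DNMT3A (ENSG00000119772; chromosome 2, 25227855 to 25342590, minus strand) stood at 61.01, 62.5, 62.58 and 58.14 CPM in controls and 44.99, 50.76, 53.32 and 46.21 CPM in MARK3i libraries. Its groups did not overlap, and the log2 change was −0.32 ± 0.07 (adjusted p = 0.000334). DNMT3B (ENSG00000088305; chromosome 20, 32762385 to 32809359, plus strand) was the member with the fewest counts, 152 to 195 per control library and 156 to 248 per MARK3i library. It stood at 11.87, 14.62, 14.23 and 15.18 CPM in controls and 10.92, 11.12, 13.7 and 10.76 CPM in MARK3i libraries, where MARK3i replicate 3 lay above control replicate 1. The log2 change of DNMT3B was −0.27 ± 0.11 (adjusted p = 0.0397). This call ended with DESeq2 (adjusted p = 0.0674), with upper-quartile scaling, with no filter, with total counts (−0.162, adjusted p = 0.225), with control replicates 1 and 2 alone (adjusted p = 0.236), with GC adjustment (−0.208, adjusted p = 0.0924) and without any of control replicates 2, 3 and 4 or MARK3i replicates 1, 2 and 4, within a range of 0.00886 to 0.236 over all alternatives.

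Relative to the de novo genes, DNMT1 was lower in MARK3i libraries. The log2 ratio of DNMT1 to DNMT3A was 2.20 ± 0.05 in controls and 1.75 ± 0.13 in MARK3i libraries (SD, n = 4; difference −0.46, exact permutation p = 0.0286, adjusted p = 0.049). For DNMT1 to DNMT3B it went from 4.33 ± 0.15 to 3.82 ± 0.17 (difference −0.52, exact permutation p = 0.0286, adjusted p = 0.049). The log2 ratio of DNMT3B to DNMT3A was −2.13 ± 0.17 and −2.07 ± 0.10, a difference of 0.06 that did not pass (exact permutation p = 0.629).

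TET2, on the demethylation side, moved the opposite way, but other genes of that side did not rise with it. TET3 (−0.26 ± 0.09, adjusted p = 0.0131) and TDG (−0.20 ± 0.08, adjusted p = 0.0279) were lower, calls that ended under some alternatives. TET1 (−0.26 ± 0.19, adjusted p = 0.249) did not pass. TET2 (ENSG00000168769; chromosome 4, 105145875 to 105279816, plus strand) stood at 30.62, 31.61, 28.96 and 28.25 CPM in controls and at 43.33, 35.74, 44.1 and 36.42 CPM in MARK3i libraries. Every MARK3i library was above every control, with MARK3i replicates 1 and 3, the pair set apart on the second principal component, the highest. The log2 change was 0.41 ± 0.08, or 1.33-fold higher (adjusted p = 0.000138). The log2 ratio of DNMT1 to TET2 fell from 3.24 ± 0.06 to 2.04 ± 0.14 (SD, n = 4), a 2.29-fold difference and the largest of the 12 ratios (exact permutation p = 0.0286, adjusted p = 0.049).

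EZH2, the main PRC2 methyltransferase gene, was slightly lower. EZH2 (ENSG00000106462; chromosome 7, 148807257 to 148884321, minus strand) stood at 124.4, 122.6, 128.4 and 117.1 CPM in controls and at 99.31, 110.4, 106.9 and 109.1 CPM in MARK3i libraries. The groups did not overlap, but the gap between the lowest control and the highest MARK3i library was narrow. The log2 change was −0.21 ± 0.06, or 1.16-fold lower (adjusted p = 0.00369), and 31.6% of tested genes had a lower change. With total counts in place of TMM the change was −0.104 and did not pass (adjusted p = 0.137), and with GC adjustment it was −0.308, within a range of adjusted p from 1.53e-06 to 0.137 over all alternatives.

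EZH1, the paralog of EZH2, did not pass the test. EZH1 (ENSG00000108799; chromosome 17, 42700275 to 42745049, minus strand) stood at 39.61, 41.4, 38.04 and 41.95 CPM in controls and at 37.69, 52.69, 42.84 and 48.63 CPM in MARK3i libraries. MARK3i replicate 1 lay below every control and the other MARK3i libraries lay above them, with replicates 2 and 4 highest. The log2 change was 0.18 ± 0.09 (adjusted p = 0.0764). It passed with total counts (0.287, adjusted p = 0.0103), with upper-quartile scaling (0.212, adjusted p = 0.0408) and without MARK3i replicate 1 (0.241, adjusted p = 0.0113), and was 0.088 without MARK3i replicate 2. The range of adjusted p over the alternatives was 0.0103 to 0.388. For EZH2 to EZH1 the log2 ratio was 1.65, 1.57, 1.75 and 1.48 in controls and 1.40, 1.07, 1.32 and 1.17 in MARK3i libraries, without overlap (difference −0.38, 1.3-fold, exact permutation p = 0.0286, adjusted p = 0.049). That call ended without control replicate 1 (adjusted p = 0.0762) or 3 (adjusted p = 0.098).

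Neither core partner of the methyltransferases passed the test. EED, which binds the methylated histone tail, stood at 27.42, 31.92, 27.89 and 28.1 CPM in controls and 25.87, 28.74, 27.26 and 26.49 CPM in MARK3i libraries (ENSG00000074266; chromosome 11, 86201212 to 86278813, plus strand). Its log2 change was −0.09 ± 0.08 (adjusted p = 0.356), with 0.018 under total counts and −0.223 with GC adjustment, where it passed (adjusted p = 0.0142). SUZ12, a scaffold of the complex, stood at 91.25, 82.89, 72.23 and 74.79 CPM in controls and 82.69, 76.63, 87.92 and 79.11 CPM in MARK3i libraries (ENSG00000178691; chromosome 17, 31937007 to 32001038, plus strand). Control replicates 1 and 2 averaged 87.07 CPM for SUZ12 and control replicates 3 and 4 averaged 73.51 CPM, a wider gap than that between the group means of 80.29 and 81.59 CPM. The log2 change of SUZ12 was 0.02 ± 0.07 (adjusted p = 0.82), with −0.125 after GC adjustment, where it passed (adjusted p = 0.0469), within a range of 0.0469 to 0.97 over the alternatives. Reads of SUZ12 can be shared with its pseudogene SUZ12P1 on the same chromosome, which went from 20.46 ± 1.55 to 16.94 ± 1.65 CPM (−0.27 ± 0.09, adjusted p = 0.0162), a call that ended with total counts (adjusted p = 0.152), without control replicate 4 (0.0677) and with control replicates 1 and 2 alone (0.132), within a range of 0.00073 to 0.152. The SUZ12 values carry that uncertainty.

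Ratios among the core subunits did not pass. The difference in log2 ratio was −0.24 for EZH2 to SUZ12 (exact permutation p = 0.0857, adjusted p = 0.129), −0.12 for EZH2 to EED (exact permutation p = 0.143, adjusted p = 0.19) and −0.12 for EED to SUZ12 (exact permutation p = 0.4, adjusted p = 0.436). These values do not show that the subunits changed alike. The ratio of EZH2 to EED passed without control replicate 2 (−0.173, adjusted p = 0.0429), the library in which EED was highest.

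JARID2, the recruiting subunit, rose most among the members. JARID2 (ENSG00000008083; chromosome 6, 15246069 to 15522042, plus strand) stood at 22.34, 18.65, 17.34 and 20.39 CPM in controls and at 35.95, 38.02, 34.31 and 33.52 CPM in MARK3i libraries. Every MARK3i library was well above the highest control. The log2 change was 0.85 ± 0.09, or 1.8-fold higher (adjusted p = 6.25e-09), and 6.24% of tested genes had a higher change. Relative to SUZ12, JARID2 rose by 0.83 on the log2 scale (exact permutation p = 0.0286, adjusted p = 0.049). JARID2-AS1, an antisense gene that shares 0 exonic bases with it, was at 0.228 CPM in controls and 0.233 CPM in MARK3i libraries.

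**Figure D2:**
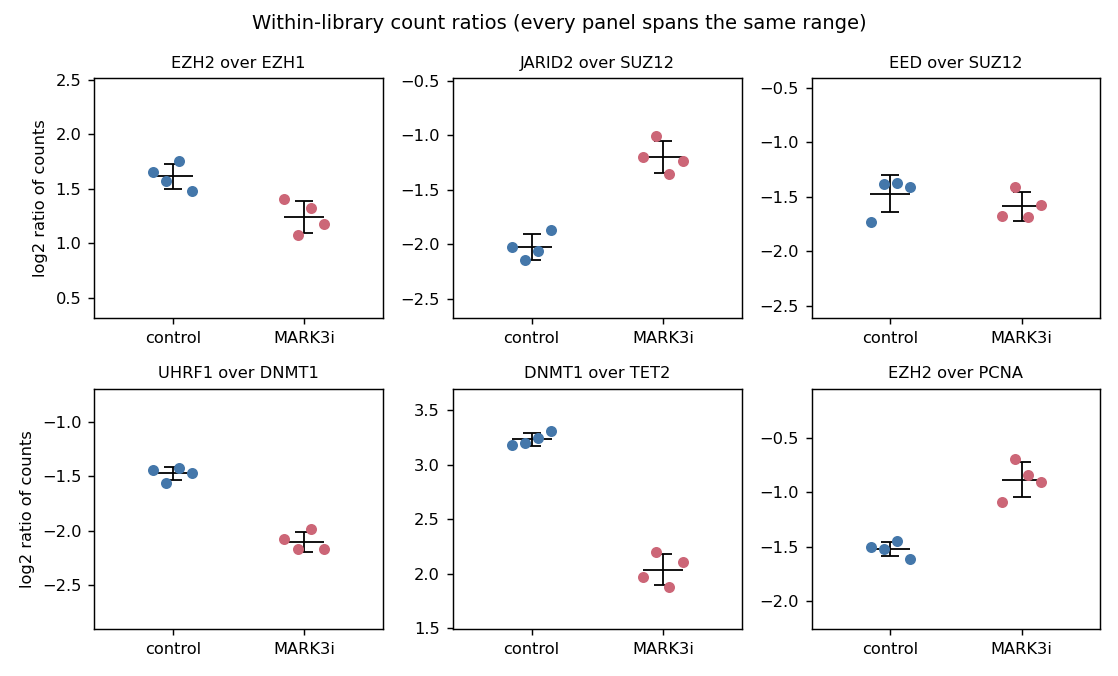
Log2 ratio of the counts of 2 genes within each library (vertical axes, each spanning the same range) in 4 control and 4 MARK3i libraries; points are libraries, lines are means and bars are ± SD. The groups are apart for EZH2 to EZH1, JARID2 to SUZ12, UHRF1 to DNMT1, DNMT1 to TET2 and EZH2 to PCNA, and overlap for EED to SUZ12.

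Levels were compared between genes as CPM per kilobase of the MANE Select transcript. In controls DNMT1 was highest (53.4 ± 1.24 CPM per kb, SD, n = 4), followed by EZH2 (46.4 ± 1.78), UHRF1 (26 ± 0.501), SUZ12 (17.9 ± 1.91), EED (13.8 ± 0.995), EZH1 (8.69 ± 0.385) and DNMT3A (6.48 ± 0.22), with no overlap between neighbours over the libraries. JARID2, DNMT3B and TET2 were lowest at 3.28, 3.22 and 3.11 CPM per kb and neighbours among them overlapped. In MARK3i libraries EZH2 (40.1 ± 1.87 CPM per kb) lay above DNMT1 (31 ± 0.982), UHRF1 (9.79 ± 0.741) overlapped with EZH1 (9.81 ± 1.42), and JARID2 (5.91 ± 0.332) overlapped with DNMT3A (5.18 ± 0.413). The order depends on the length used: per kilobase of all annotated exons, UHRF1 (19.7) was above DNMT1 (18.3) and SUZ12 (12.3) overlapped with EZH2 (11.4) in controls.

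Other PRC2 genes changed in both directions. The counts of this and the following lists stand against 29.8% higher, 28.3% lower and 58.1% called in all among the genes tested, and nothing particular to a list is read from them. Of 10 accessory subunits and inhibitors, 3 fell, 3 rose and 4 missed the threshold (median −0.03). RBBP4, a histone chaperone subunit shared with other complexes, fell from 284.1 ± 7.72 to 169.2 ± 2.76 CPM (−0.75 ± 0.05, adjusted p = 7.38e-12), whereas its paralog RBBP7 was at 209.2 ± 9.38 and 205.0 ± 6.99 CPM (−0.03 ± 0.06, adjusted p = 0.667). PHF19, a Polycomb-like subunit, fell by 0.64 ± 0.09 on the log2 scale and EPOP, an elongin-binding subunit, by 0.93 ± 0.09. LCOR, whose locus also encodes the PRC2 partner PALI1, rose (0.52 ± 0.08). EZHIP, an inhibitor of PRC2, rose from 0.6298 ± 0.223 to 2.181 ± 1.05 CPM (1.83 ± 0.35, adjusted p = 9.34e-05), which rests on 32 counts over the controls and 155 over the MARK3i libraries. The rise of LCORL (0.26 ± 0.10) ended with DESeq2 (adjusted p = 0.082), with GC adjustment, with control replicates 1 and 2 alone and without any of control replicates 2, 3 and 4 or MARK3i replicates 1 and 3, within adjusted p of 0.00493 to 0.431. With GC adjustment, 6 of these 10 were lower.

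PRC1, which ubiquitinates histone H2A at Polycomb sites, and the enzymes that reverse the Polycomb marks were mixed too. Of 24 PRC1 genes, 5 were higher, 8 lower and 11 did not pass (median 0.03), with 10 higher and 4 lower under total counts, 2 higher with control replicates 1 and 2 alone and 5 lower with control replicates 3 and 4 alone. BMI1, a core subunit, rose from 35.8 ± 2.3 to 62.85 ± 3.56 CPM (0.81 ± 0.07, adjusted p = 5.95e-10), and PCGF5, a subunit of a variant complex, rose by 0.54 ± 0.09. CBX2, a reader of the PRC2 mark, fell by 0.52 ± 0.09, KDM2B, which binds unmethylated CpG islands, by 0.50 ± 0.07, and PCGF2, the paralog of BMI1, by 0.37 ± 0.08. The H3K27 demethylase genes moved apart, with KDM6A higher (0.375 ± 0.07, adjusted p = 0.000113) and KDM6B lower (−0.39 ± 0.11, adjusted p = 0.00576; −0.286 and adjusted p = 0.0598 with total counts, adjusted p = 0.0623 with control replicates 1 and 2 alone, lowest 6.17e-09). Among 6 genes of demethylation and H2A deubiquitination, 2 were higher, 2 lower and 2 did not pass; BAP1 rose (0.29 ± 0.06) and its partner gene ASXL1 fell (−0.32 ± 0.07).

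Among other factors of DNA methylation, the genes of the CDCA7 and HELLS remodelling complex, which opens nucleosomal DNA to methylation, fell strongly. CDCA7 fell from 35.47 ± 2.45 to 10.4 ± 1.3 CPM (−1.78 ± 0.10, adjusted p = 3.91e-14) and HELLS from 132.9 ± 7.12 to 66.73 ± 7.23 CPM (−0.997 ± 0.07, adjusted p = 1e-11). Of 10 genes on this list, 8 were tested, with 1 higher, 5 lower and 2 not passing (median −0.23). The other falls were small: TET3 (−0.26 ± 0.09), TDG (−0.20 ± 0.08) and USP7 (−0.17 ± 0.06) did not pass with total counts or with control replicates 3 and 4 alone, when 2 genes were lower. TET3 also missed with GC adjustment (adjusted p = 0.112), and TDG with upper-quartile scaling (adjusted p = 0.0544) and without MARK3i replicate 2 (adjusted p = 0.0607), and 3 genes were lower without control replicate 1 or 2 or MARK3i replicate 4. UHRF2, the paralog of UHRF1, was at 40.08 ± 1.71 and 39.17 ± 3.62 CPM (−0.03 ± 0.08, adjusted p = 0.741), and TET1 at 3.206 ± 0.172 and 2.696 ± 0.455 CPM (−0.26 ± 0.19, adjusted p = 0.249). CDCA7L rose (0.64 ± 0.16) from 3.701 ± 0.327 CPM. DNMT3L had 1 count over the controls and 0 over the MARK3i libraries and was not tested.

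Methyl-CpG readers, listed with their relative MBD3, and enzymes of the methyl donor S-adenosylmethionine completed the pathway. Of 8 genes on the reader list, 3 rose, 1 fell and 4 were not called (median 0.11). The gene that fell was MBD3 (−0.35 ± 0.07), an MBD-family gene whose protein is not a selective reader of methylated CpG in mammals. ZBTB38 (0.71 ± 0.13) and the repair glycosylase gene MBD4 (0.35 ± 0.08) rose. The rise of MBD1 (0.16 ± 0.07) ended with DESeq2 (adjusted p = 0.0846), with RLE scaling, with no filter and with either pair of controls alone. It also ended on leaving out any 1 control replicate, or MARK3i replicate 2 or 4 (adjusted p up to 0.213 over the alternatives). Of 8 methyl donor genes, 5 were lower, 2 higher and 1 did not pass (median −0.29). MAT2A, which makes the donor, fell from 230.3 ± 5.9 to 178.4 ± 13.4 CPM (−0.37 ± 0.06), and MTRR fell by 0.60 ± 0.09 on the log2 scale. MAT2B (0.16 ± 0.06) did not pass with GC adjustment (0.026), with no filter, with control replicates 1 and 2 alone or without control replicate 3 or 4 or MARK3i replicate 1, when 1 gene was higher.

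**Figure D3:**
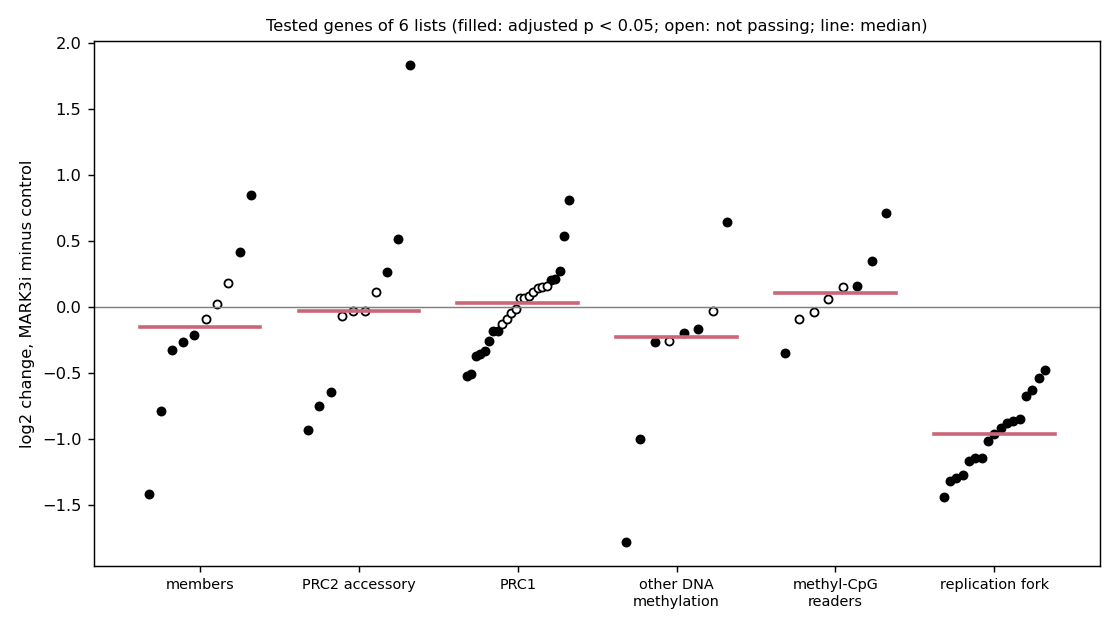
Log2 change (MARK3i minus control, vertical axis) of each tested gene in 6 lists; filled points passed the test, open points did not, and the line is the median of the tested genes. The replication fork genes all lie below 0, with a median of −0.96, while the members and the other lists hold genes on both sides.

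DNMT1 and UHRF1 act at the replication fork, so their changes were set beside fork genes. All 17 fork genes tested were lower, with a median of −0.96, including MCM5 (−1.44 ± 0.06) and PCNA (−0.845 ± 0.06), the sliding clamp that binds DNMT1. The log2 ratio of DNMT1 to PCNA was −0.33 ± 0.04 in controls and −0.26 ± 0.11 in MARK3i libraries (SD, n = 4; difference 0.06, exact permutation p = 0.343, adjusted p = 0.411). That value does not show that DNMT1 and PCNA changed alike, and PCNA fell less than the median fork gene. No ratio of UHRF1 to a fork gene, or of DNMT1 to a fork gene other than PCNA, was tested. EZH2 rose relative to PCNA, from −1.52 ± 0.07 to −0.88 ± 0.16 (difference 0.64, exact permutation p = 0.0286, adjusted p = 0.049). Fork genes moved in the same libraries as DNMT1 and UHRF1, and their part in the change of these members was not tested.

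Genes known as targets of these enzymes changed in both directions, and 58.1% of all tested genes were called. Of 16 genes known as EZH2-repressed in tumours, 12 were tested, with 5 higher, 3 lower and 4 not passing (median 0.03). CDKN2B, a cell cycle inhibitor gene, rose from 3.596 ± 0.489 to 11.24 ± 0.536 CPM (1.64 ± 0.14, adjusted p = 1.67e-10) and SLIT2, a guidance ligand gene, by 0.90 ± 0.13, whereas BMPR1B (−1.15 ± 0.10) and DAB2IP (−0.57 ± 0.08) fell. Of 27 developmental genes that PRC2 silences in many tissues, 10 were tested, with 3 higher, 4 lower and 3 not passing, and with 5 higher when no filter was applied or with DESeq2. PAX6 rose from 8.884 ± 0.554 to 24.66 ± 1.24 CPM (1.47 ± 0.09) and LHX9 by 0.88 ± 0.10, and DLX1 fell from 89.47 ± 4.72 to 33.98 ± 1.07 CPM (−1.395 ± 0.07). The 17 untested genes had at most 78 counts each over all 8 libraries, and 4 had 0. Among them HAND1 (3 counts over the controls, 33 over the MARK3i libraries), BARX1 (6 and 36) and NEUROG2 (22 and 56) were higher in every MARK3i library. The groups overlapped for the rest. These few counts were not tested.

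Germline and cancer-testis genes are silenced by DNA methylation in most normal cells. Of 27 germline and cancer-testis genes, 13 were tested, with 0 higher, 7 lower and 6 not passing (median −0.375), where 28.3% of all tested genes were lower and 29.8% higher, and with 1 higher under total counts or without control replicate 3. CTAG2 fell from 269.6 ± 15.6 to 150.8 ± 7.58 CPM (−0.84 ± 0.06), MAGEA1 from 104.0 ± 4.27 to 67.82 ± 3.18 CPM (−0.62 ± 0.06) and SYCP3 from 9.549 ± 1.29 to 3.16 ± 0.883 CPM (−1.61 ± 0.17). MAGE and CTAG genes have close copies, so reads may be split between them. The 14 untested genes had at most 16 counts each over all 8 libraries, and 8 of them, DAZL and TEX101 included, had 0. Of 11 genes often hypermethylated in prostate cancer, 5 were tested, with 1 higher (APC, 0.54 ± 0.10), 3 lower (RASSF1, RARB and AOX1) and 1 not passing (median −0.51). The call of RARB ended with control replicates 3 and 4 alone (−0.438, adjusted p = 0.0973). GSTP1, a gene commonly methylated in prostate cancer, had 12 counts over the controls and 14 over the MARK3i libraries. DNA methylation and histone marks were not measured.

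The genes whose levels followed a member most closely were taken from 10270 tested genes that averaged 10 CPM or more, by Pearson's r of log2 CPM over the 8 libraries. For EZH2 they were PHF12, FBLIM1, PAN2, GIT1 and DFFB (r from 0.9771 to 0.9858). For DNMT1 they were UBQLN4, LGR5, SLC7A5, WASL-DT and RMI2 (0.9979 to 0.9989), and for UHRF1 they were LRRC8A, GLYATL1, KCTD15, TSKU and BZW2 (0.9984 to 0.9989). All had negative log2 changes, and with 2 groups of 4 these values mostly restate the difference between the groups.

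**Figure D4:**
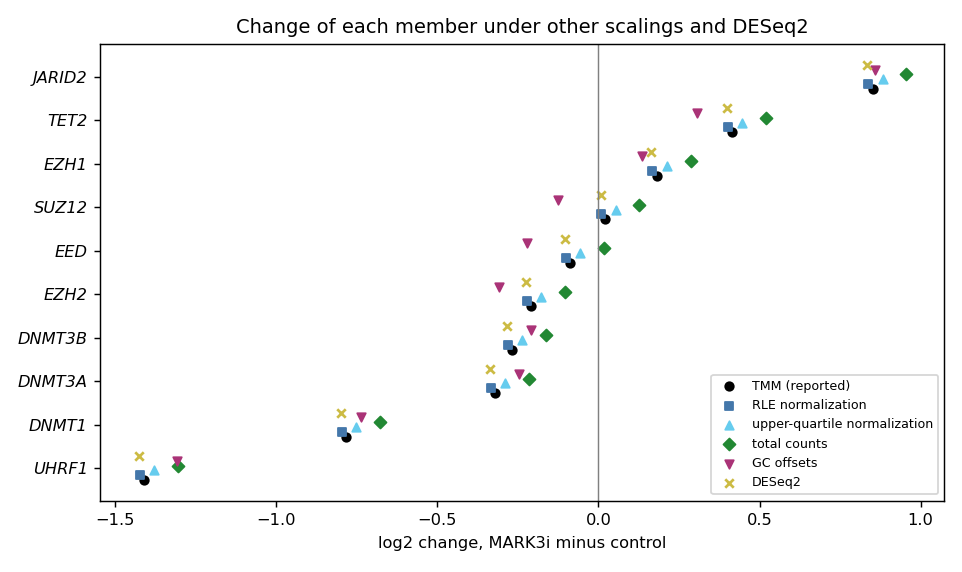
Log2 change of each member (MARK3i minus control, horizontal axis) with TMM scaling as reported, with RLE, upper-quartile and total-count scaling, with GC adjustment and with DESeq2. All members but SUZ12 and EED stay on their side of 0 under each, although the calls of EZH2, DNMT3B and EZH1 change under some. SUZ12 and EED lie near 0 and cross it, SUZ12 with GC adjustment and EED with total counts.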

How the data were processed

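The authors deposited raw gene counts for each sample. Reads were aligned to hg38 and assigned to genes by featureCounts, per the submitters' processing notes and the design text. Aligner, annotation, versions and strandedness: not given in the sources used here, so reads of overlapping genes on opposite strands may not be told apart. Overlaps were looked up for the 10 members only. Groups and replicate numbers came from the sample titles. Each file listed 58735 Ensembl identifiers, of which 58207 were found in GENCODE release 44 and 0 named no gene.

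The test was edgeR 4.0.16 (R 4.3.3) with group as the only term: filterByExpr left 16452 genes, TMM factors scaled the totals, and glmQLFit (robust) and glmQLFTest gave p-values, with an adjusted p under 0.05 called. The SE is the log2 change divided by the square root of F. The median SE was 0.096 and the biological coefficient of variation 7.2%. In simulated counts (16221 genes), the test recovered 30% of genes changed 1.25-fold, 68% at 1.5-fold, 80% at 2-fold and 98% at 4-fold. It called 0.05% of unchanged genes. Such rates depend on how many genes are made to change, and the simulation was not matched to the 58.1% found in the real data. They hold for the simulated counts only, and the power of the real comparison was not tested. Ratios used log2 of (count + 0.5) and an exact permutation test, adjusted over 12 ratios. Alternatives were other scalings, filters and thresholds, DESeq2 1.42.0, limma-voom (limma 3.58.1), a replicate block, thinning, GC offsets per library and each library left out. Fits on control replicates 1 and 2 or 3 and 4 alone were chosen after seeing the data.

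The members and lists were chosen with earlier results of these data known. All 10 members are named. From each other list the genes named are among the 5 per direction with the smallest p, a few set by name (such as RBBP7, UHRF2, TET1 and DNMT3L) and, for likeness, the 5 most correlated genes.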

Additional observations from a re-analysis of the deposited data

Results flagged for a closer look

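In 5 of 46 groups of 4 values examined, 1 library stood apart from the other 3 by more than Dixon's 95% limit; chance flags about 1 in 20 groups. MARK3i replicate 2 had a total count of 21271127, against 14218542 in the next deepest library of its group. EED was at 31.92 CPM in control replicate 2, against 28.1 CPM in the next control. DNMT3B was at 13.7 CPM in MARK3i replicate 3, against 11.12 CPM in the next. The log2 ratio of EED to SUZ12 counts was −1.733 in control replicate 1, against −1.411 in the nearest control, and that of DNMT1 to PCNA was −0.2691 in control replicate 2, against −0.3413.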

How the results depend on the processing

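The changes of UHRF1 (−1.46 to −1.31), DNMT1 (−0.822 to −0.679), JARID2 (0.778 to 0.955), DNMT3A (−0.375 to −0.215) and TET2 (0.305 to 0.519) kept their direction and their call under all 22 alternatives. The number of members lower was 3 with total counts and 2 at a minimum log2 change of 0.5, when 1 was higher. For small changes the cause of the following shifts was not tested. With total counts EZH2 was at −0.104, EED at 0.018, EZH1 at 0.287, DNMT3B at −0.162, RBBP7 at 0.074 and UHRF2 at 0.073. With upper-quartile scaling EZH1 was at 0.212, DNMT3B at −0.238 and RBBP7 at 0.002. GC offsets gave −0.223 for EED, −0.125 for SUZ12 and −0.208 for DNMT3B, and with the replicate block added −0.229, −0.123 and −0.21. DNMT3B was at −0.277 with no filter and −0.284 with DESeq2. With control replicates 1 and 2 alone SUZ12 was at −0.109 and DNMT3B at −0.205, and with control replicates 3 and 4 alone RBBP7 was at 0.023.

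Leaving out 1 library gave ranges of 0.088 to 0.241 for EZH1, −0.029 to 0.086 for SUZ12, −0.364 to −0.23 for DNMT3B and −0.08 to 0.03 for UHRF2. For the log2 ratios the ranges were −0.429 to −0.319 (EZH2 to EZH1), −0.173 to −0.086 (EZH2 to EED), 0.762 to 0.877 (JARID2 to SUZ12), −0.516 to −0.411 (DNMT1 to DNMT3A), −0.564 to −0.432 (DNMT1 to DNMT3B), −0.017 to 0.123 (DNMT3B to DNMT3A), −0.666 to −0.604 (UHRF1 to DNMT1), −1.25 to −1.14 (DNMT1 to TET2) and 0.574 to 0.703 (EZH2 to PCNA). The calls of the 7 ratios ended without control replicate 1 or 3, with adjusted p of 0.0571 to 0.098. For all but EZH2 to EZH1 this came from the adjustment alone, since each remained at the smallest p that the design allows.

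Same-numbered samples share only a number: the correlations of their deviations were 0.131, −0.088, −0.053 and 0.084, and not every sample correlated best with its own number. With the replicate block 5 members were lower and 2 higher, and 4684 genes were lower and 4912 higher, against 4652 and 4899. A paired sign-flip test of the ratios cannot go below 0.125, so it tests none of them. Depth limits the named genes with few counts, such as EZHIP with 32 counts over the controls and TET1 with 162, and GSTP1 and DNMT3L had too few to test.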
